A study of Homo sapiens with 12 samples.

Results

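The genes described here are 10 sensors of foreign or misplaced nucleic acids and the adaptors and kinase that carry their signal, chosen by name from the 25268 gene symbols measured. They are DDX58 (RIG-I), IFIH1 (MDA5), DHX58 (LGP2), TLR3, EIF2AK2 (PKR), ZBP1, MB21D1 (cGAS), TMEM173 (STING), MAVS and TBK1. Earlier results of these data were known when these genes and the gene lists below were chosen. HEK293, an established human embryonic kidney cell line, was transiently transfected with 2 µg of the plasmid pCMV6-HIS-HA-RBMX or with the mock empty vector, which served as control. RBMX is an RNA-binding protein, and the study asked whether it alters the abundance of mRNAs and their loading on ribosomes. Each culture, 3 per vector, gave a library of total RNA and a library of polysomal RNA, the heavy part of a sucrose gradient where mRNAs carry several ribosomes, so that there were 12 libraries made from 500 ng of RNA each. The cultures were described as biological replicates. By the study's methods both groups received a plasmid, although the sample titles call the control libraries WT. No group was described as untransfected or as given another protein. As these are bulk samples, more cells that express a gene and more RNA per cell cannot be told apart.

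RIG-I and MDA5 are helicases that bind viral RNA in the cytosol and pass the signal to MAVS on mitochondria, and LGP2 is a relative that lacks the signalling domains and modulates both. TLR3 senses RNA in endosomes, and PKR is a kinase that shuts down translation when it binds RNA duplexes. cGAS answers DNA in the cytosol with a cyclic dinucleotide that STING detects, and ZBP1 binds nucleic acids in the Z conformation. MAVS, STING and TLR3 all activate TBK1, which phosphorylates the transcription factor that switches on type I and type III interferon genes. Secreted interferon in turn activates factors that bind the interferon-stimulated response element (ISRE) and the gamma-activated site (GAS), and several of the sensors are known to be induced in this way.

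The promoters were inspected for these elements because several of the sensors are known targets of interferon. RefSeq promoter sequences, 250 bases before to 50 bases after the start of the gene on GRCh38.p14, were at hand for 6 of the 10 genes (DDX58, IFIH1, TLR3, EIF2AK2, MAVS and TBK1). The ISRE core GAAANNGAAA, searched on both strands, occurred in 3.57% of 35116 promoters and in 3 of these 6, namely IFIH1, TLR3 and EIF2AK2. The GAS core TTCNNNGAA, which reads the same on both strands, occurred in 7.66% of the promoters and in the 6 only in that of TLR3. Windows around 1 match per gene, the one nearest the start of the gene, are shown in the direction of transcription, with the ISRE core or its reverse complement in capitals.
IFIH1: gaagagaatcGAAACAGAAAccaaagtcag
TLR3: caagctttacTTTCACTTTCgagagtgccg
EIF2AK2: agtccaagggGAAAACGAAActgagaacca
The window of IFIH1 lies at chr2:162318686-162318715 on the minus strand, and its core begins 21 bases before the RefSeq start. That of TLR3 lies at chr4:186069142-186069171 on the plus strand and begins 4 bases before its RefSeq start, and that of EIF2AK2 lies at chr2:37156967-37156996 on the minus strand and begins 6 bases before its RefSeq start. The RefSeq starts lie 19 (IFIH1), 4 (TLR3) and 85 bases (EIF2AK2) downstream of the gene starts in GENCODE v29, from which the gene positions below are taken, so that the cores of TLR3 and EIF2AK2 and most of that of IFIH1 lie inside the GENCODE genes. Further upstream, IFIH1 had 2 more matches that overlap each other, beginning 159 and 153 bases before its RefSeq start. A match describes these letters and not a bound site.

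The authors deposited expression as FPKM, fragments per kilobase of transcript scaled by library size, so that levels can be compared between genes. How many fragments stand behind a library is unknown. Of the 10 genes, 8 reached an average of 0.5 FPKM across all libraries and were tested among 14676 genes. ZBP1 (mean 0.0629) and MB21D1 (mean 0.493) were below this limit. Fold changes are on the log2(FPKM + 1) scale, which understates the change of genes with a low FPKM, and p-values come from limma with Benjamini-Hochberg adjustment over all genes tested and a threshold of 0.05. With 3 libraries against 3, no exact permutation test can give a two-sided p under 0.1.

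RBMX itself checked the labels. Its FPKM in total RNA was 147, 145 and 108 under the mock vector and 1731, 2073 and 1460 under the RBMX plasmid, a log2 fold change of 3.71 (limma adjusted p = 0.00269). The polysomal log2 fold change was 3.25 (limma adjusted p = 0.0415). All 9 markers of HEK293 cells were present, from 2.49 FPKM upwards. Their summed FPKM was lowest in the control libraries numbered 3, with 471 in total and 433 in polysomal RNA, against 886 to 1028 in the other libraries. Of 8 leukocyte markers CD14 lay between 1.16 and 1.99 and the other 7 at or below 0.589 FPKM, with MS4A1 at 0 in 11 libraries and PTPRC at 0.0209 or less. The leukocyte markers summed to 1.76 to 2.30 FPKM in control and 2.07 to 3.09 in RBMX total libraries, and to 1.63 to 1.97 and 2.02 to 2.45 in polysomal libraries, where the groups did not overlap. CSF1R (up to 0.103 FPKM) and CD74 (up to 0.589) were higher in all RBMX libraries in both fractions, with means below the limit for testing. The groups of PTPRC, LYZ, CD3E, MS4A1 and NKG7 overlapped in both fractions, and those of CD14 in total RNA. The RBMX mean was lower for NKG7 in both fractions and for LYZ in polysomal RNA. The part of leukocytes in the results was not tested. The control libraries numbered 3 stood apart from their replicates. In total RNA 13.8% and in polysomal RNA 20.4% of genes were at least 0.5 log2 units from the mean of the other replicates, against 2.82% to 5.81% in the other libraries. The RBMX libraries numbered 3 did not stand apart in this way, with 3.85% in total and 4.93% in polysomal RNA. Calls, and groups that overlap, are also given without the libraries numbered 3 of both vectors where that changed them. This setting was chosen after seeing the data.

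The RNA sensors were higher in all RBMX-overexpressing cultures, whereas MAVS and TBK1 were not and TMEM173 lay between. DDX58, IFIH1, DHX58, TLR3 and EIF2AK2 had all 3 RBMX libraries above all 3 control libraries, in total and again in polysomal RNA. That is 5 of the 8 tested, where 11.9% of all genes tested did so in the total and 10.0% in the polysomal libraries. The groups of TMEM173, MAVS and TBK1 overlapped in both fractions. For TMEM173 the overlap came from replicate 3, and without the libraries numbered 3 its RBMX libraries were above the controls in both fractions, as were those of 27.7% of all genes tested in total and 26.7% in polysomal RNA. With all libraries, none of the 8 had all RBMX libraries below the controls, as 15.4% of all genes tested did in total and 12.5% in polysomal RNA. A log2 fold change of at least 1 was measured for 4 of the 8, DDX58, IFIH1, DHX58 and TLR3, in each fraction, against 1.82% of all genes tested in total and 1.75% in polysomal RNA. The median log2 fold change of the 8 was 0.81 in total and 0.97 in polysomal RNA, and that of all genes tested was 0.

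None of these differences passed the threshold in limma with all libraries. The genes called were 24 of all genes tested in total RNA (0.164%) and 7 in polysomal RNA (0.0477%). At an unadjusted limma p under 0.05 there were 5 of the 8 genes in each fraction, all higher. Of all 14676 genes tested there were 2756 in total RNA, 1164 of them higher, and 1715 in polysomal RNA, 757 of them higher. None of the 8 was called in total RNA without control replicate 3 alone. The calls that follow come from leaving out low RBMX values and are not separate support. They depended on RBMX replicate 3, the RBMX library with the lowest sensor levels. Without it 4 of the 8 were called in total RNA, DDX58 (limma adjusted p = 0.0434), IFIH1 (0.0477), DHX58 (0.00440) and TLR3 (0.00246), and 2 in polysomal RNA, DHX58 (0.00722) and TLR3 (0.0132). Without that library 178 of all genes tested (1.21%) were called in total and 126 (0.859%) in polysomal RNA. Without the libraries numbered 3 of both vectors, DDX58, IFIH1, DHX58 and TLR3 were called in both fractions, with limma adjusted p-values from 0.00213 to 0.0123. With these libraries left out, 306 of all genes tested (2.09%) were called in total and 348 (2.37%) in polysomal RNA.

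**Figure D1:**
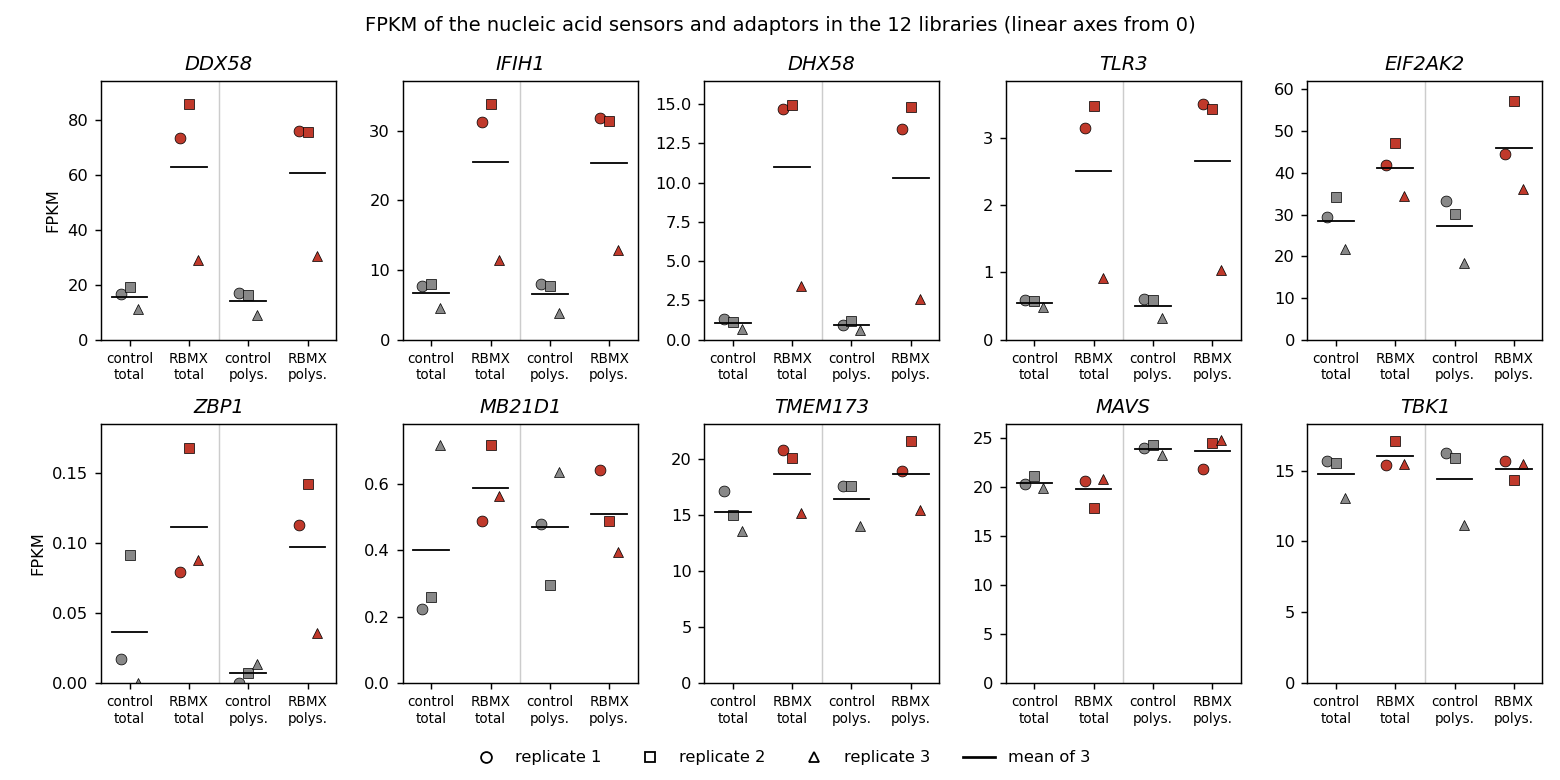
FPKM of each of the 10 genes (linear axes from 0) in the 3 replicates of control (grey) and RBMX-overexpressing cells (red), in total and polysomal RNA, with the mean of 3 as a bar. In the upper row all red points lie above the grey points of their fraction, and the triangles of replicate 3 are the lowest of every group, while MAVS lies between 17.8 and 24.8 FPKM throughout.

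DDX58, the sensor of RNA ends that carry a triphosphate, went from a middle place to the highest mean level of the 10. In total RNA its FPKM was 16.8, 19.2 and 11.0 in control and 73.5, 86.0 and 29.1 in RBMX-overexpressing cells, with means of 15.6 ± 4.20 and 62.9 ± 29.9 (SD, n = 3 each). In polysomal RNA it was 17.0, 16.3 and 8.81 in control and 76.2, 75.9 and 30.4 in RBMX-overexpressing cells. The lowest RBMX library was above the highest control library in both fractions, and the means differed 4.02-fold in total and 4.33-fold in polysomal RNA. The log2 fold change was 1.84 for total RNA (standard error 0.45, adjusted p = 0.176 in limma) and 1.98 for the polysomes (standard error 0.44, adjusted p = 0.400). The gene lies on chromosome 9 from 32455705 to 32526324 on the minus strand (GENCODE v29, GRCh38).

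IFIH1, which encodes the sensor of long RNA duplexes, followed the same pattern at a lower level. Its FPKM in total RNA was 7.68, 7.98 and 4.54 in control and 31.2, 33.9 and 11.5 in RBMX-overexpressing cells. In polysomal RNA the values were 8.05, 7.75 and 3.77 in control and 31.8, 31.5 and 12.9 in RBMX-overexpressing cells. The means differed 3.79-fold and 3.89-fold without overlap of the groups. The log2 fold change was 1.67 for total RNA (standard error 0.45, adjusted p = 0.183 in limma) and 1.76 for the polysomes (standard error 0.44, adjusted p = 0.400). IFIH1 lies on chromosome 2 from 162267079 to 162318703 on the minus strand.

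DHX58, the regulator without signalling domains, had the largest ratio of the 8 tested genes. Its FPKM in total RNA was 1.28, 1.12 and 0.673 in control and 14.7, 15.0 and 3.40 in RBMX-overexpressing cells. In polysomal RNA it was 0.915, 1.20 and 0.592 in control and 13.4, 14.8 and 2.55 in RBMX-overexpressing cells. The means differed 10.8-fold in total and 11.4-fold in polysomal RNA, and RBMX replicate 3 was at 0.230 and 0.181 times the mean of the other two RBMX libraries. The log2 fold change was 2.36 for total RNA (standard error 0.54, adjusted p = 0.176 in limma) and 2.31 for the polysomes (standard error 0.61, adjusted p = 0.400). DHX58 lies on chromosome 17 from 42101404 to 42112733 on the minus strand.

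TLR3, the endosomal receptor, was close to the limit for testing in control cells. Its FPKM in total RNA was 0.596, 0.575 and 0.482 in control and 3.15, 3.48 and 0.912 in RBMX-overexpressing cells. In polysomal RNA it was 0.598, 0.592 and 0.322 in control and 3.51, 3.43 and 1.03 in RBMX-overexpressing cells. The groups did not overlap, and the means differed 4.56-fold and 5.27-fold. On the log2(FPKM + 1) scale, where the added 1 weighs most on such a gene, the change was 1.08 for total RNA (standard error 0.34, adjusted p = 0.201 in limma) and 1.20 for the polysomes (standard error 0.33, adjusted p = 0.400). TLR3 lies on chromosome 4 from 186069152 to 186088069 on the plus strand.

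EIF2AK2, the kinase that halts translation, had the highest mean of the 10 in control cells and the smallest difference of the 5. In control polysomal RNA its range overlapped that of MAVS, which was higher in replicate 3. Its FPKM in total RNA was 29.5, 34.3 and 21.7 in control and 41.9, 47.2 and 34.5 in RBMX-overexpressing cells, which left a narrow gap between control replicate 2 and RBMX replicate 3. In polysomal RNA it was 33.3, 30.2 and 18.3 in control and 44.4, 57.1 and 36.2 in RBMX-overexpressing cells. The means differed 1.45-fold and 1.68-fold. The log2 fold change was 0.53 for total RNA (standard error 0.20, adjusted p = 0.243 in limma) and 0.75 for the polysomes (standard error 0.27, adjusted p = 0.417), and the gene was not called under any alternative tried in either fraction. EIF2AK2 lies on chromosome 2 from 37099210 to 37157065 on the minus strand, and its exons overlap those of GPATCH11 and AC007899.1 on the other strand, so that fragments in the overlap are uncertain because the use of strand in counting was not stated.

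The adaptors and TBK1 had smaller log2 differences than the RNA sensors in both fractions. TMEM173, the adaptor of the DNA pathway, had FPKM values of 17.2, 15.0 and 13.5 in control and 20.9, 20.1 and 15.2 in RBMX total RNA, and 17.6, 17.6 and 14.1 against 18.9, 21.6 and 15.5 in polysomal RNA. RBMX replicate 3 was within the control range in both fractions, and replicates 1 and 2 were above it. The log2 difference was 0.27 in total RNA (95% interval -0.095 to 0.64) and 0.17 in polysomal RNA (-0.21 to 0.55), which leaves room for a difference of the size seen for EIF2AK2 in total RNA. Without the libraries numbered 3 it was 0.33 in total RNA (95% interval 0.094 to 0.57, limma adjusted p = 0.107) and 0.19 in polysomal RNA (-0.054 to 0.43, limma adjusted p = 0.217).

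MAVS, the adaptor of RIG-I and MDA5, had the smallest difference of the 8 genes. Its FPKM was 20.3, 21.1 and 19.8 in control and 20.6, 17.8 and 20.8 in RBMX total RNA, and 23.9, 24.3 and 23.2 against 21.8, 24.4 and 24.8 in polysomal RNA. RBMX replicate 3, the lowest RBMX library for each of the 5 sensors, was the highest RBMX library for MAVS in both fractions. The log2 difference was -0.047 in total RNA (95% interval -0.24 to 0.14) and -0.012 in polysomal RNA (-0.19 to 0.17).

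TBK1, the kinase downstream of the adaptors, had FPKM values of 15.7, 15.5 and 13.0 in control and 15.4, 17.1 and 15.5 in RBMX total RNA, and 16.2, 15.9 and 11.2 against 15.6, 14.3 and 15.5 in polysomal RNA. The control library numbered 3 was the lowest in both fractions. The other libraries overlapped in total RNA, whereas in polysomal RNA every RBMX library lay below the other controls. The log2 difference was 0.11 in total RNA (95% interval -0.12 to 0.34) and 0.081 in polysomal RNA (-0.30 to 0.46). Without the libraries numbered 3 it was -0.097 in polysomal RNA, with both RBMX libraries below both controls. The share of all genes tested that did so was not computed, and 26.7% had both RBMX libraries above both controls. TMEM173 lies on chromosome 5 from 139475534 to 139482935 on the minus strand, MAVS on chromosome 20 from 3846799 to 3876123 on the plus strand, and TBK1 on chromosome 12 from 64451880 to 64502108 on the plus strand. Exons of TBK1 overlap those of AC135279.3 on the other strand.

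**Figure D2:**
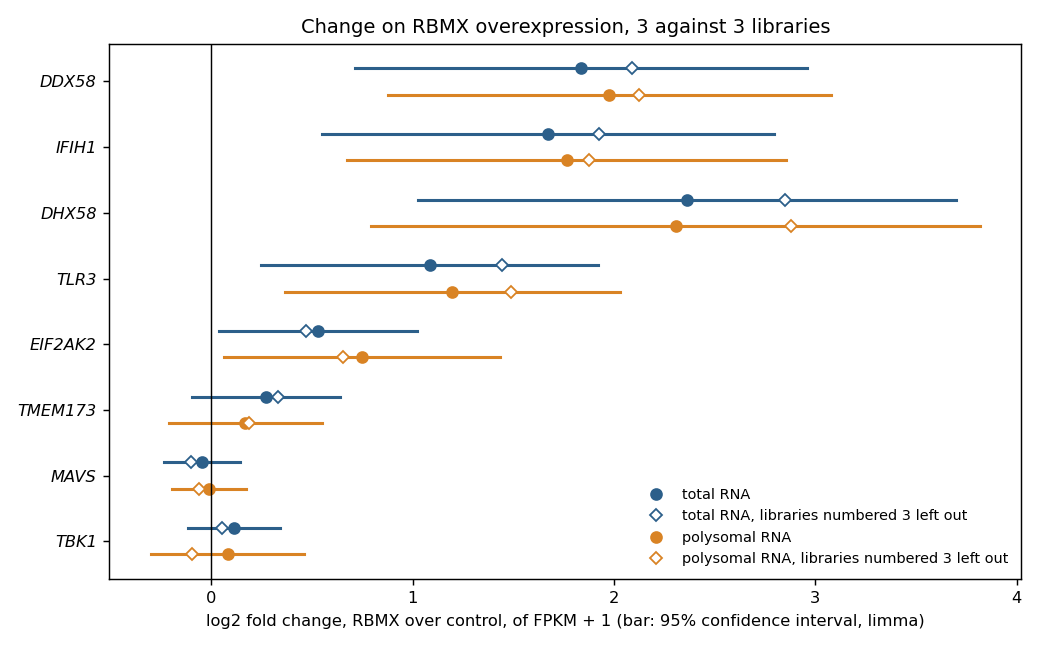
Log2 fold change (RBMX over control, FPKM + 1) of the 8 tested genes in total (blue) and polysomal RNA (orange), with the 95% confidence interval of limma as a bar and, as open diamonds, the value without the libraries numbered 3. The intervals of the 5 upper genes do not reach 0 and those of TMEM173, MAVS and TBK1 include it, and none of the 8 passed the threshold after adjustment over 14676 genes.

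The cytosolic DNA sensor and ZBP1 were at the edge of what was measured. MB21D1 had FPKM values of 0.224, 0.258 and 0.720 in control and 0.489, 0.717 and 0.563 in RBMX total RNA, and 0.481, 0.296 and 0.637 against 0.644, 0.489 and 0.397 in polysomal RNA. Its groups overlapped, and control replicate 3 was the highest of the 6 in total RNA. Without the libraries numbered 3 the RBMX libraries were above the controls in both fractions, beside 27.7% of all genes tested in total and 26.7% in polysomal RNA. The ratio of the means then went from 1.47 to 2.50 in total and from 1.08 to 1.46 in polysomal RNA. With a lower limit of 0.1 FPKM, its log2 difference was 0.20 for total RNA (adjusted p = 0.502 in limma) and 0.041 for the polysomes (adjusted p = 0.881). The gene lies on chromosome 6 from 73413515 to 73452276 on the minus strand, and its exons overlap those of DDX43 on the other strand.

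ZBP1 was listed at 0.0167, 0.0917 and 0 FPKM in control and at 0.0792, 0.168 and 0.0876 in RBMX total RNA. In polysomal RNA it was listed at 0, 0.00702 and 0.0134 in control and at 0.113, 0.142 and 0.0357 in RBMX-overexpressing cells. The groups overlapped in total RNA and did not in polysomal RNA. Tested with no filter, its log2 difference was 0.10 for total RNA (adjusted p = 0.350 in limma) and 0.12 for the polysomes (adjusted p = 0.364). ZBP1 lies on chromosome 20 from 57603846 to 57620576 on the minus strand.

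The order of the levels changed with these differences. In control total RNA EIF2AK2 was highest with a mean of 28.5 FPKM, followed by MAVS with 20.4, both with ranges apart from the next gene. DDX58 (15.6), TMEM173 (15.3) and TBK1 (14.8) came next with overlapping ranges, then IFIH1 (6.73) and DHX58 (1.02) apart from their neighbours, TLR3 (0.551) and MB21D1 (0.401) with overlapping ranges, and ZBP1 (0.0361). In RBMX total RNA DDX58 (62.9) and EIF2AK2 (41.2) were highest and overlapped. IFIH1 (25.5), MAVS (19.7), TMEM173 (18.7) and TBK1 (16.0) had the next means, each with a range that overlapped the next of these. Through replicate 3, the range of IFIH1 (11.5 to 33.9) also overlapped those of DDX58 (lowest 29.1) and DHX58 (highest 15.0). DHX58 (11.0) overlapped TLR3 (2.51) because of replicate 3, and MB21D1 (0.590) and ZBP1 (0.112) were again lowest.

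Setting each gene against MAVS of the same library removes any factor that scales a whole library. DDX58 was at 0.828, 0.909 and 0.555 times MAVS in control total RNA and at 3.57, 4.83 and 1.40 times in RBMX total RNA, so that the sensor was below its adaptor in every control library and above it in every RBMX library. In polysomal RNA the ratio was 0.711, 0.670 and 0.379 in control and 3.50, 3.11 and 1.23 in RBMX-overexpressing cells. IFIH1 went from 0.379, 0.378 and 0.229 times MAVS in control total RNA to 1.51, 1.90 and 0.551 times in RBMX total RNA, where replicate 3 stayed below the adaptor. DHX58, TLR3 and EIF2AK2 also had groups that did not overlap on this scale in both fractions, and TMEM173 and TBK1 overlapped in both. As MAVS differed little, these ratios largely repeat the separations in FPKM. The share of all genes tested on this scale was not computed.

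**Figure D3:**
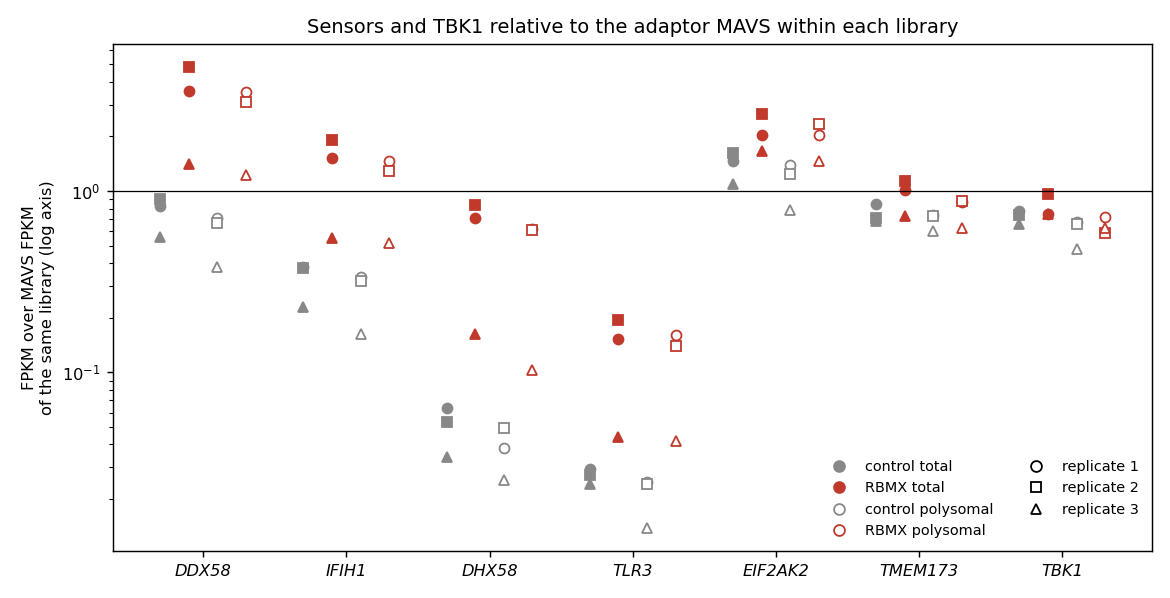
FPKM of 7 genes divided by the FPKM of MAVS in the same library (log axis, line at 1), for control (grey) and RBMX-overexpressing cells (red) in total (filled) and polysomal RNA (open), with 1 symbol per replicate. The red points of DDX58 run from 1.23 to 4.83 and its grey points from 0.379 to 0.909, whereas red and grey overlap for TMEM173, through replicate 3, and for TBK1.

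Replicate 3 had the lowest value of all 4 groups for 6 of the 8 genes tested, DDX58, IFIH1, DHX58, TLR3, EIF2AK2 and TMEM173, and so did 7.68% of all genes tested. RBMX replicate 3 was at 0.365 times the mean of the other two RBMX libraries for DDX58, 0.352 for IFIH1, 0.275 for TLR3 and 0.774 for EIF2AK2 in total RNA. RBMX was also lower there, at 0.768 times. The control library numbered 3 was at 0.612 times the other two controls for DDX58, 0.580 for IFIH1, 0.561 for DHX58, 0.823 for TLR3 and 0.681 for EIF2AK2, and at 0.738 times for RBMX. Between the libraries numbered 3 alone, DDX58 was 2.65-fold, IFIH1 2.52-fold, DHX58 5.06-fold and TLR3 1.89-fold higher in RBMX total RNA. Between the means of the libraries numbered 1 and 2 they were 4.44-fold, 4.16-fold, 12.4-fold and 5.66-fold higher. EIF2AK2 went the other way, with 1.59-fold between the libraries numbered 3 and 1.40-fold between those means.

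Interferon genes and their known targets were higher in the same libraries as the sensors. The 14 readouts were the interferon genes IFNB1 and IFNL1 and 12 genes known to be induced through them. All were tested, and all had RBMX libraries above the controls in both fractions. So did 11.9% of all genes tested in total and 10.0% in polysomal RNA. The readouts were chosen with earlier results of these data known, so that their number is not separate support. CXCL10 passed the limit for testing only through its RBMX libraries, with control means of 0.441 FPKM in total and 0.333 in polysomal RNA. The median log2 fold change of the 14 was 2.67 in total and 2.37 in polysomal RNA, and limma called none. An unadjusted limma p under 0.05 was seen for 14 and 13 of them, all higher. Of all 14676 genes tested, 2756 (1164 of them higher) and 1715 (757 of them higher) had such a p. IFNB1, which encodes interferon beta, had FPKM values of 1.22, 0.867 and 0.813 in control and 19.2, 22.1 and 3.19 in RBMX total RNA. RSAD2, an antiviral enzyme with the largest log2 difference of the 14 (3.32 in total RNA), had 15.6, 17.9 and 4.69 against 207, 225 and 36.6. The summed FPKM of the readouts was 362 to 705 in control total libraries and 1165 to 4094 in RBMX total libraries, and 11 of the 14 were lowest in replicate 3 in all 4 groups. The part of the interferon response in the sensor levels was not tested.

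Genes that act beside these sensors, 49 in all, included some that were higher in all RBMX libraries. They were 15 regulators of the RNA sensors, 17 signalling adaptors and kinases, 13 genes of DNA sensing and nucleic acid clearance and 4 of other endosomal receptors. Of the 44 tested, limma called 0 in either fraction, 14 had an unadjusted p under 0.05 in total RNA (13 higher) and 11 in polysomal RNA (10 higher). All RBMX libraries were above the controls for 14 of the 44 and below them for 2 in each fraction, beside 11.9% and 15.4% of all genes tested in total RNA and 10.0% and 12.5% in polysomal RNA. Their median log2 fold change was 0.15 in total and 0.13 in polysomal RNA, beside 0 for all genes tested and 0.81 and 0.97 for the 8 sensors and adaptors.

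The largest differences among them were upward. IRF7, the transcription factor that amplifies interferon production, had FPKM values of 48.9, 46.7 and 29.7 in control and 143, 137 and 69.3 in RBMX total RNA, a log2 difference of 1.42 in total and 1.43 in polysomal RNA (limma adjusted p = 0.176 and 0.400). SAMHD1, which depletes the nucleotides that viruses need, had 32.4, 35.9 and 13.8 against 71.8, 75.9 and 42.9 and log2 differences of 1.25 and 1.49 (limma adjusted p = 0.218 and 0.400). For both genes the RBMX libraries were above all controls in each fraction.

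The downward differences were small. RNF125, a ubiquitin ligase that marks RIG-I for degradation, had 5.38, 5.65 and 6.16 FPKM in control and 4.44, 4.38 and 4.84 in RBMX total RNA (log2 difference -0.28, limma adjusted p = 0.177). TRAF3, a ubiquitin ligase between MAVS and TBK1, differed by -0.12 in total RNA (limma adjusted p = 0.378). In polysomal RNA the scaffold protein gene TANK differed by -0.39 (limma adjusted p = 0.426) and RNF135, a ubiquitin ligase that activates RIG-I, by -0.19 (limma adjusted p = 0.406).

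**Figure D4:**
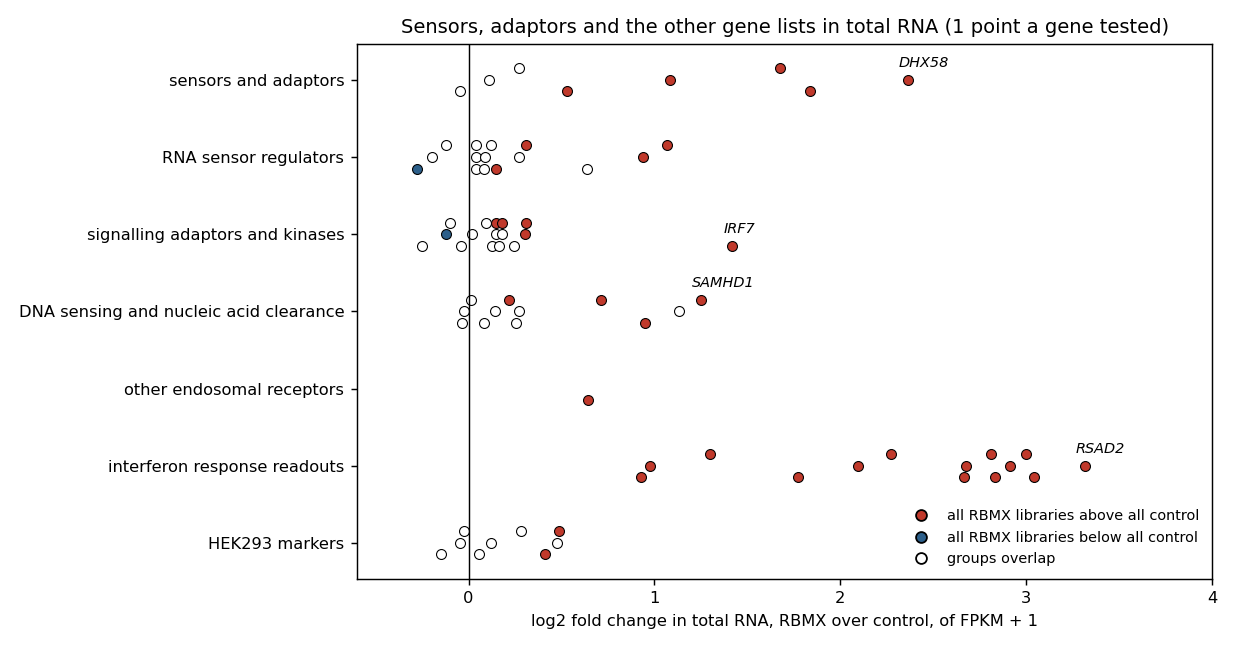
Log2 fold change in total RNA (RBMX over control, FPKM + 1) of each tested gene of the named lists, 1 point a gene, coloured by whether the 3 RBMX libraries all lie above (red) or below (blue) the 3 control libraries. The sensors and adaptors spread from -0.047 to 2.36, the interferon readouts from 0.93 to 3.32 and the HEK293 markers from -0.15 to 0.49.

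Whether the sensor mRNAs were loaded on polysomes to a different extent was tested as the polysomal minus the total effect over the 12 libraries. None of the 8 genes was called, beside 3 of all genes tested (0.0204%), or 5 when the total and polysomal libraries of each culture were paired. None of the 8 had an unadjusted p under 0.05 and 88 of all genes tested did. The differences ran from -0.10 for TMEM173 to 0.22 for EIF2AK2 (limma adjusted p = 1.00 for all 8). With each culture paired the difference was 0.14 for DDX58 (95% interval -0.14 to 0.42), 0.091 for IFIH1 (-0.16 to 0.35), -0.058 for DHX58 (-0.34 to 0.23), 0.11 for TLR3 (-0.086 to 0.31) and 0.22 for EIF2AK2 (-0.094 to 0.53). These intervals are narrow beside the changes of 1.08 to 2.36 in total RNA for all of these genes except EIF2AK2, whose change in total RNA was 0.53. However, total RNA was pooled from all fractions of the gradient, the polysomal ones included. A part is thus compared with the whole, which makes any difference in loading appear smaller.

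In polysomal against total RNA, averaged over both vectors, 1 of the 8 genes was called, MAVS, which is near the share of all genes tested. Its polysomal FPKM was 1.18, 1.15 and 1.17 times the total FPKM in the control cultures and 1.06, 1.37 and 1.19 times in the RBMX cultures, above 1 in 6 of 6 cultures with a mean of 1.19 ± 0.102 (SD, n = 6). The log2 difference was 0.23 (standard error 0.048, limma adjusted p = 0.0186), and with each culture paired the adjusted p was 0.0190. Of all 14676 genes tested 8.93% were called (1310 genes, or 3512 with each culture paired), so that the call does not set MAVS apart from them. The call was lost without control culture 1 (limma adjusted p = 0.0786) or 2 (0.0694) and without RBMX culture 2 (0.0698) or 3 (0.0548), while the log2 difference stayed between 0.19 and 0.26. The other 7 genes had mean ratios between 0.887 for DHX58 and 1.04 for TMEM173, and DHX58 was above 1 in 1 of 6 cultures.

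**Figure D5:**
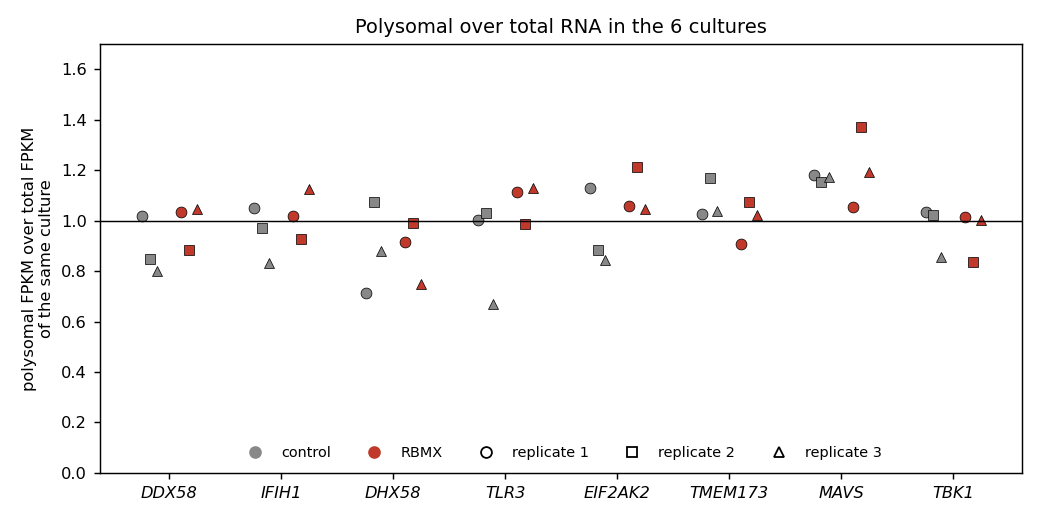
Polysomal FPKM divided by the total FPKM of the same culture (axis from 0, line at 1) for the 8 tested genes, in 3 control (grey) and 3 RBMX cultures (red). All 6 points of MAVS lie above the line, from 1.06 to 1.37, and those of the other genes lie on both sides of it.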

How the data were processed

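RNA-seq libraries of HEK293 cells (3 cultures per vector, total and polysomal RNA) were analysed from the FPKM values that the authors deposited. The submitters' processing notes name CASAVA 1.8, TopHat2 2.0.13, Cufflinks 2.2.1, Cuffnorm and hg19, without their roles, whereas the paper's methods describe hg38, counts and DESeq2. Whether FPKM was scaled further between libraries is not given in the sources used here, and depth is unknown.

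FPKM values were compared as log2(FPKM + 1) with limma 3.58.1 (lmFit, eBayes with trend) in R 4.3.3, over the 14676 of 25268 genes whose FPKM averaged 0.5 or more. Each fraction was fitted on its own 6 libraries, and the comparisons between fractions on all 12. The fits were tested on simulated data. Alternatives were pseudocount 0.1, minimum FPKM 0.1, 1 or none, median-ratio or quantile scaling, no trend, a replicate block, 1 joint fit and each replicate left out. Leaving out the libraries numbered 3 was added after seeing the data.

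Total and polysomal RNA of a culture come from 1 gradient, as the methods describe, and the total pools all of its fractions. Their deviations from the group means correlated over genes with 0.589, 0.692 and 0.850 in control and 0.252, 0.0249 and 0.661 in RBMX cultures. The genes and lists were chosen with earlier results of these data known. Named were the sensors and adaptors, RBMX, any pathway gene called and, per fraction and direction, the 2 pathway genes with the largest change and groups that do not overlap, and any readout or marker. Positions come from GENCODE v29 and promoters from RefSeq (GRCh38.p14).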

Additional observations from a re-analysis of the deposited data

How the results depend on the processing

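Of 496 values of the 8 genes under alternatives, 458 kept direction and side of the threshold, 14 passed it only under the alternative, 4 lost it (MAVS, polysomal against total RNA) and 20 changed sign, all of the latter not called. The gains came without RBMX replicate 3 or without the libraries numbered 3, where the number of these genes called went from 0 to 4 in total RNA (0 to 4 with single replicates left out) and from 0 to 4 in polysomal RNA (0 to 2), and for polysomal against total RNA it was 0 to 1. Genes called in total RNA were 62 with a minimum FPKM of 0.1, 77 with no filter, 60 in 1 joint fit, 306 without the libraries numbered 3 and 19 to 178 with single replicates left out, 178 without RBMX replicate 3 and 40 without control replicate 3. In polysomal RNA these were 14, 31, 22, 348 and 9 to 126, the highest again without RBMX replicate 3. For the difference between fractions 14 were called without the libraries numbered 3 and 4 to 7 with cultures left out. For polysomal against total RNA these were 2860 and 153 to 3337, the lowest without control culture 1 and the highest without control culture 3.

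The labels do not say whether control and RBMX cultures of the same replicate number belong together. Over genes, their deviations correlated with -0.18 to 0.34. However, 6 of the 8 genes were lowest in replicate 3 of every group, against 7.68% of all genes tested. A block on the replicate number gave 13 calls in total and 3 in polysomal RNA and called none of the 8 genes. In total RNA it lowered the standard error of DDX58 from 0.45 to 0.20 and that of EIF2AK2 from 0.20 to 0.063. Only that of MAVS rose, from 0.076 to 0.085. Whether the replicates share a batch was not tested. Pairing by culture, the replicate block across fractions, gave 5 calls for the difference and 3512 for polysomal against total RNA and changed no call of the 8 genes.

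Signs changed for MAVS in polysomal RNA with median-ratio scaling (0.011), for TBK1 in polysomal RNA without the libraries numbered 3 (-0.097), where the differences between fractions of IFIH1 (-0.050) and DHX58 (0.033) also did, and for polysomal against total RNA of TLR3 with a pseudocount of 0.1 (-0.022) and of IFIH1 with quantile scaling (0.012). With single replicates left out, MAVS ran from -0.084 to 0.022 in total and from -0.045 to 0.044 in polysomal RNA, and TBK1 from -0.081 to 0.17 in polysomal RNA. For the difference between fractions DHX58 ran from -0.14 to 0.024, MAVS from -0.057 to 0.12 and TBK1 from -0.11 to 0.053. For polysomal against total RNA IFIH1 ran from -0.054 to 0.020, TLR3 from -0.015 to 0.042, EIF2AK2 from -0.018 to 0.082 and MAVS, called with all cultures, from 0.19 to 0.26. The cause was not tested.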

Other observations

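Several regulators and clearance enzymes outside the sensors also had all RBMX libraries above the controls in both fractions. Of all genes tested, 11.9% did so in total and 10.0% in polysomal RNA, and the share in both was not computed. The genes named here were picked after their values were seen, and none was called. TRIM56 (log2 difference 0.95 in total and 1.14 in polysomal RNA), UNC93B1, RIPK1 and DHX9 were also higher in both fractions. TRIM25, a ubiquitin ligase linked to RIG-I activation, had FPKM values of 39.6, 41.6 and 22.9 in control and 76.2, 74.9 and 48.8 in RBMX total RNA (log2 difference 0.94, limma adjusted p = 0.201). DDX60, a helicase linked to the same pathway, had 2.93, 3.18 and 2.16 against 8.32, 9.20 and 4.02 (1.07, limma adjusted p = 0.186). ADAR, which edits adenosine in RNA duplexes, had 76.5, 84.4 and 50.6 against 130, 123 and 92.0 (0.71, limma adjusted p = 0.214). The DNA sensor gene IFI16 had 27.6, 30.8 and 13.5 against 64.6, 72.2 and 27.8, so that its groups overlapped in total RNA and not in polysomal RNA (log2 difference 1.13 and 1.16, limma adjusted p = 0.277 and 0.425). IRF3, the factor that TBK1 phosphorylates, differed by 0.31 in total and 0.18 in polysomal RNA (limma adjusted p = 0.227 and 0.417).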
